A study of Mus musculus with 16 samples.

Results

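The transcripts described here are those of 10 aldehyde dehydrogenase genes, Aldh1a1, Aldh1b1, Aldh1l1, Aldh2, Aldh3a2, Aldh4a1, Aldh5a1, Aldh6a1, Aldh7a1 and Aldh9a1, in mouse tibialis anterior, the main muscle of the shin. They were chosen by symbol out of 29730 genes in the count table, from the 21 aldehyde dehydrogenase symbols listed for the mouse, and all 10 were among the 14960 genes that passed the filter on low counts. The choice was made with earlier results of these samples known, while the rule itself states no measured value and no threshold. Every value of the 10 genes is therefore given as a description, and the adjusted P values printed beside them, which come from the fit across all 14960 genes, are not independent evidence.

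RNA sequencing covered 16 samples from male mice of 7 weeks, all C57BL/6N per the labels, with 4 samples in each group. WT_PBS were wild-type mice that received PBS, WT_ASO were wild-type mice that received the antisense oligonucleotide ASO1, KO_PBS were Bin1mck-/- mice that received PBS, and KO_ASO were Bin1mck-/- mice that received ASO1. Antisense oligonucleotides are designed to base-pair with a chosen RNA and lower its amount, and the series names Dnm2, a membrane-cutting GTPase, as the target. Bin1 encodes amphiphysin 2, which bends membranes, and mck conventionally stands for the muscle creatine kinase promoter, which is active in muscle fibres, so cells other than fibres may keep the gene. The sources used here give neither dose nor injection schedule, nor the deleted stretch of Bin1.

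Libraries held 27591900 to 40862854 counts, and values below are CPM, a library's counts scaled to a common size after trimmed mean of M values (TMM) normalization. Bin1 stood at mean levels of 494.7 CPM in WT_PBS, 539.0 CPM in WT_ASO, 44.9 CPM in KO_PBS and 35.5 CPM in KO_ASO. Dnm2 stood at 56.1 CPM in WT_PBS, 25.6 CPM in WT_ASO, 62.8 CPM in KO_PBS and 24.8 CPM in KO_ASO, so both targeted genes followed the labels. Muscle fibre markers, 8 genes such as Acta1 and Ckm, summed to between 119250 and 215170 CPM in every library. In whole muscle, fewer cells of a type and less RNA per cell cannot be told apart.

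Aldehyde dehydrogenases oxidise aldehydes to carboxylic acids with NAD+ or NADP+ as the electron acceptor. Some members clear reactive aldehydes that arise from lipid peroxidation and alcohol, and others carry out a fixed step in the breakdown of amino acids, fatty alcohols or neurotransmitters or in the synthesis of retinoic acid. Most of the amino acid and aldehyde-clearing forms lie in mitochondria, of which muscle holds many. Among the 10 genes, Aldh2 and Aldh1b1 encode mitochondrial enzymes with broad aldehyde substrates, Aldh4a1, Aldh5a1, Aldh6a1 and Aldh7a1 act in amino acid and GABA breakdown, Aldh3a2 oxidises fatty aldehydes, Aldh9a1 acts on aminobutyraldehyde and in carnitine synthesis, Aldh1a1 makes retinoic acid and Aldh1l1 oxidises formyl-tetrahydrofolate.

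To rank the transcripts, CPM were divided by the exonic length of each gene in kilobases, since longer transcripts collect more reads. In WT_PBS, Aldh6a1 had the highest mean level per length, 25.4 ± 1.95 CPM per kb (SD, n = 4), and Aldh2 followed at 21.4 ± 4.66 CPM per kb. Aldh4a1 measured 15.1 ± 1.09 CPM per kb and Aldh1a1 13.1 ± 2.78 CPM per kb. Aldh7a1 came next at 4.999 ± 0.0636 CPM per kb, well apart from its neighbours on either side.

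Lower levels per length were held by Aldh3a2 at 2.98 ± 0.428 CPM per kb, Aldh5a1 at 2.94 ± 0.402 CPM per kb, Aldh9a1 at 2.42 ± 0.588 CPM per kb and Aldh1l1 at 1.76 ± 0.437 CPM per kb in WT_PBS. Aldh1b1 was last of the 10 at 0.211 ± 0.120 CPM per kb. By exonic length, the ranges of the 4 samples overlapped between Aldh6a1 and Aldh2 and between Aldh4a1 and Aldh1a1. They also overlapped between neighbours along the run from Aldh3a2 through Aldh5a1 and Aldh9a1 to Aldh1l1. The order of genes that overlap is not resolved, whereas Aldh3a2 and Aldh5a1 both lay wholly above Aldh1l1. With the length of the longest transcript in place of the exonic length, Aldh1a1 and Aldh4a1 changed places. The length used for Aldh1a1 then went from 4937 to 2358 bases, and that for Aldh4a1 from 4907 to 4142 bases. Which genes overlap thus depends on the length chosen, and the overlaps given hold for the exonic length only.

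**Figure D1:**
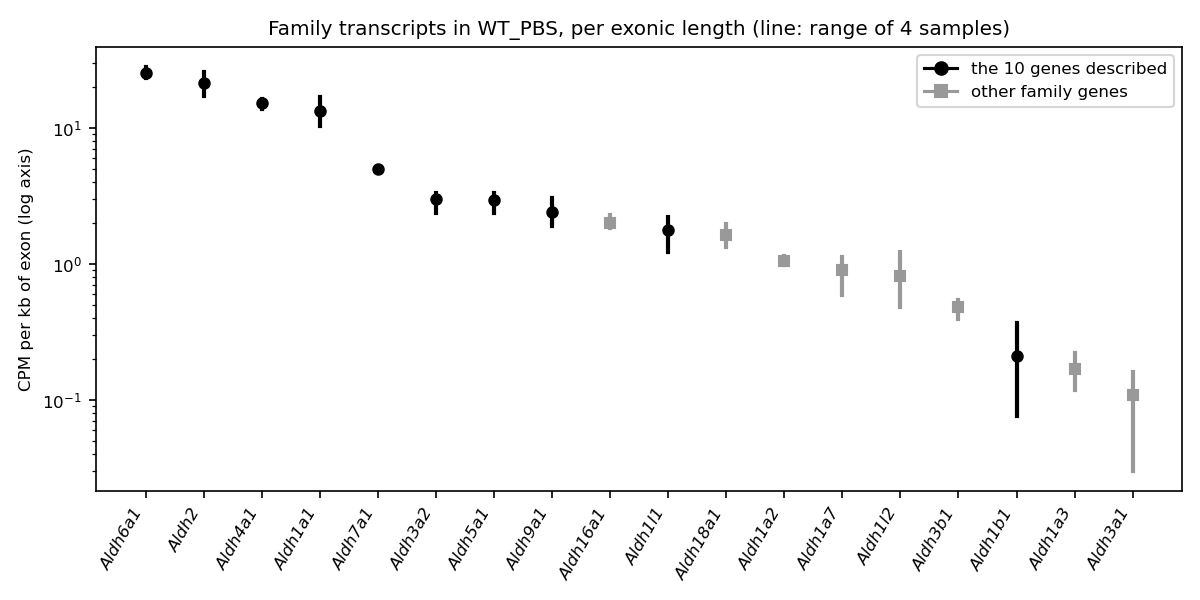
Mean CPM per kb of exon (log axis) of 18 tested aldehyde dehydrogenase genes in the 4 WT_PBS samples, with the range of the samples as a line. The 10 genes described (black circles) span from 25.4 CPM per kb for Aldh6a1 to 0.211 CPM per kb for Aldh1b1, and the other family genes (grey squares) all lie below Aldh9a1.

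The 10 transcripts together had sums of 471.0 ± 18.8 CPM in WT_PBS, 534.8 ± 69.6 CPM in WT_ASO, 489.2 ± 23.7 CPM in KO_PBS and 452.5 ± 35.4 CPM in KO_ASO (SD, n = 4). The ranges were 448.5 to 490.3 CPM in WT_PBS, 460.6 to 604.4 CPM in WT_ASO, 458.2 to 515.9 CPM in KO_PBS and 418.6 to 502.3 CPM in KO_ASO, all overlapping, and the sums were not tested. Aldh6a1, Aldh2 and Aldh4a1 supplied 70.1% of the sum in WT_PBS and 71.8% in KO_PBS.

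The first comparison asked how the family stood in Bin1mck-/- muscle without the oligonucleotide. In KO_PBS vs WT_PBS, 2 of the 10 genes were higher, Aldh1b1 and Aldh2, 1 was lower, Aldh4a1, and 7 did not pass the threshold of an adjusted P value of 0.05 (edgeR quasi-likelihood test, Benjamini-Hochberg adjustment). Among all genes tested, 7.43% were called higher and 5.12% lower. The median log2 fold change (log2FC) of the 10 genes was -0.05, beside -0.01 for all genes. With library totals in place of TMM, the median of all genes moved to 0.14, so a log2FC here is relative to the TMM scale.

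For 4 of the 10 genes no KO_PBS sample fell within the WT_PBS range, beside 20.4% of all genes tested: Aldh1b1 and Aldh2 lay above, Aldh4a1 and Aldh7a1 below. Aldh7a1 was barely apart, with at most 25.599 CPM in KO_PBS and at least 25.663 CPM in WT_PBS, and was not called (adjusted P value 0.627, edgeR). The 7 genes that were not called had log2FC from -0.23 to 0.01 and adjusted P values from 0.207 to 0.987. Since the genes were picked with these results known, the counts are not read as a property of the family.

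**Figure D2:**
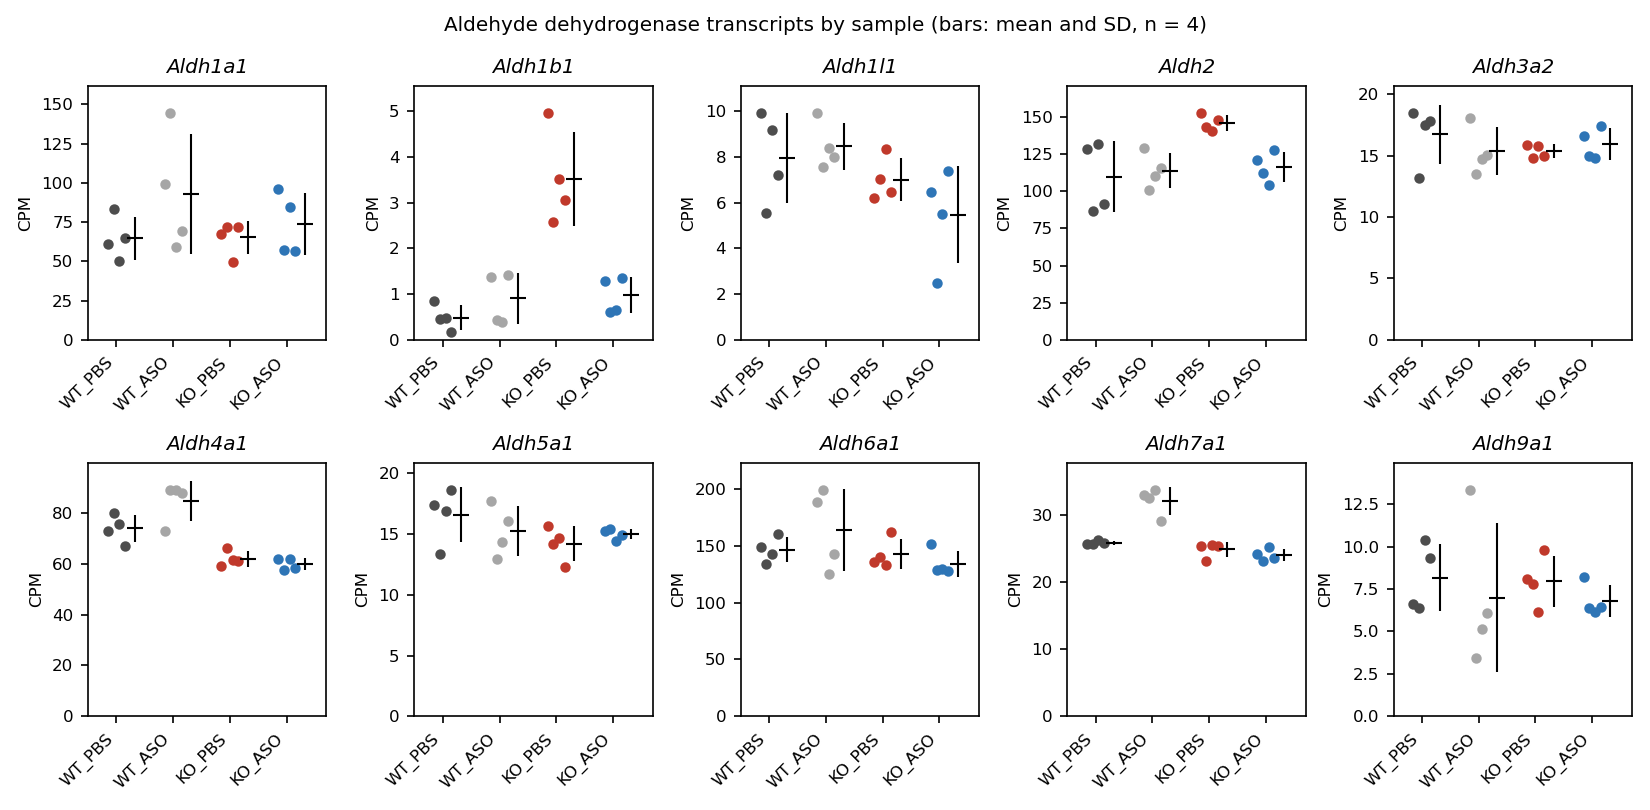
CPM of each of the 10 genes in the 16 samples, 1 panel per gene with its own axis from 0, grouped as WT_PBS, WT_ASO, KO_PBS and KO_ASO, with the mean and SD of 4 samples beside the points. Aldh1b1 reached 2.58 to 4.96 CPM in KO_PBS and at most 1.42 CPM elsewhere, and Aldh7a1 was at 29.1 to 33.9 CPM in WT_ASO and at most 26.4 CPM elsewhere.

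Of the mitochondrial aldehyde-clearing pair, Aldh1b1 (ENSMUSG00000035561, GRCm38 chr4:45799022-45804604, plus strand, protein coding) moved the most on the log2 scale. Its levels in WT_PBS were 0.848, 0.447, 0.467 and 0.176 CPM in replicates 1 to 4, which rest on only 7 to 29 counts per library. KO_PBS samples held 4.96, 2.58, 3.51 and 3.06 CPM, from 91 to 180 counts. The lowest KO_PBS library thus lay above every WT_PBS library.

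The fitted difference of Aldh1b1 between KO_PBS and WT_PBS was a log2FC of 2.87 ± 0.47 (SE), or 7.30-fold (adjusted P value 0.00098, edgeR). Leaving out any 1 of the 16 libraries gave a log2FC from 2.57 to 3.29 and an adjusted P value from 0.00080 to 0.0049. Macrophage markers were also higher in KO_PBS: 9 of 10 were called, and their sum ran from 128.2 to 379.6 CPM beside 49.4 to 79.3 CPM in WT_PBS. The fibroblast sum ran from 1249 to 2013 CPM beside 949 to 1221 CPM, with 4 of 10 markers higher. In KO_PBS replicates 1 to 4 the macrophage sum was 215.1, 128.6, 128.2 and 379.6 CPM. The fibroblast sum was 1993, 1249, 1734 and 2013 CPM in the same order. Replicate 1, highest in Aldh1b1, was second highest in both sums, replicate 2, lowest in Aldh1b1, was lowest in the fibroblast sum, and replicate 4 was highest in both sums. The part of these cell types in the result was not tested.

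Given ASO1, KO mice showed Aldh1b1 levels of 1.28, 0.607, 0.658 and 1.36 CPM in KO_ASO replicates 1 to 4. All 4 lay below the lowest KO_PBS sample, and their range overlapped that of WT_PBS. For KO_ASO vs KO_PBS the log2FC was -1.85 ± 0.44 (SE), which leaves 27.8% of the KO_PBS level (adjusted P value 0.031, edgeR). The call was lost without KO_PBS replicate 1 (adjusted P value 0.101), without KO_ASO replicate 1, 2 or 3 (0.0652, 0.0840 and 0.0898) and with no filter on low counts (0.0501). Macrophage markers moved alongside, with 7 of 10 lower in KO_ASO and a sum of 54.0 to 83.4 CPM, and their part in the result was not tested.

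Aldh1b1 in wild-type mice given ASO1 measured 1.37, 0.434, 0.395 and 1.42 CPM. These values fell in a high and a low pair, and the low pair overlapped WT_PBS (log2FC 0.91 ± 0.49 (SE), adjusted P value 0.806, edgeR). Set against WT_PBS, KO_ASO had a log2FC of 1.02 with an interval of 2 SE from 0.04 to 1.998 (adjusted P value 0.611). The interaction, which asks whether the oligonucleotide effect differed between the genotypes, was -2.76 ± 0.66 (SE) on the log2 scale. It missed the threshold (adjusted P value 0.0704, edgeR), with 0.0494 to 0.152 when single libraries were left out. Of these fits, the one without WT_ASO replicate 2 passed. DESeq2 gave an adjusted P value of 0.0034.

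The other enzyme of the pair, Aldh2 (ENSMUSG00000029455, GRCm38 chr5:121566027-121593824, minus strand, protein coding), clears acetaldehyde and products of lipid peroxidation. WT_PBS samples held 128.8, 87.1, 131.8 and 91.2 CPM. KO_PBS samples held 152.7, 143.4, 140.4 and 148.3 CPM. All KO_PBS values exceeded all WT_PBS values, and WT_PBS split into a high and a low pair, whereas KO_PBS varied little.

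Aldh2 differed by a log2FC of 0.41 ± 0.13 (SE), or 1.33-fold, in KO_PBS vs WT_PBS (adjusted P value 0.039, edgeR). The call was lost without WT_PBS replicate 2 or 4 (adjusted P values 0.119 and 0.129), without any 1 of the KO_PBS replicates (0.0593 to 0.104) and when the fit held only the 2 groups (0.0702), with log2FC between 0.32 and 0.51 over all libraries left out. The higher macrophage and fibroblast marker sums in KO_PBS stand beside this gene too, and their part was not tested. KO_ASO samples held 121.0, 112.6, 104.2 and 127.9 CPM, all below KO_PBS and inside the range of WT_PBS. The decrease from KO_PBS was not called (log2FC -0.33 ± 0.13 (SE), adjusted P value 0.166, edgeR).

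Aldh1b1 and Aldh2 were the 2 genes of the 10 whose KO_ASO samples did not overlap KO_PBS, beside 10.4% of all genes tested. In KO_ASO vs KO_PBS, none of the 10 was called higher and only Aldh1b1 was called lower, while 0.802% of all genes were called higher and 2.83% lower. KO_ASO vs KO_PBS and KO_PBS vs WT_PBS share the 4 KO_PBS samples, so opposite signs in the pair of comparisons are not independent. The 9 genes not called had log2FC from -0.36 to 0.17.

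**Figure D3:**
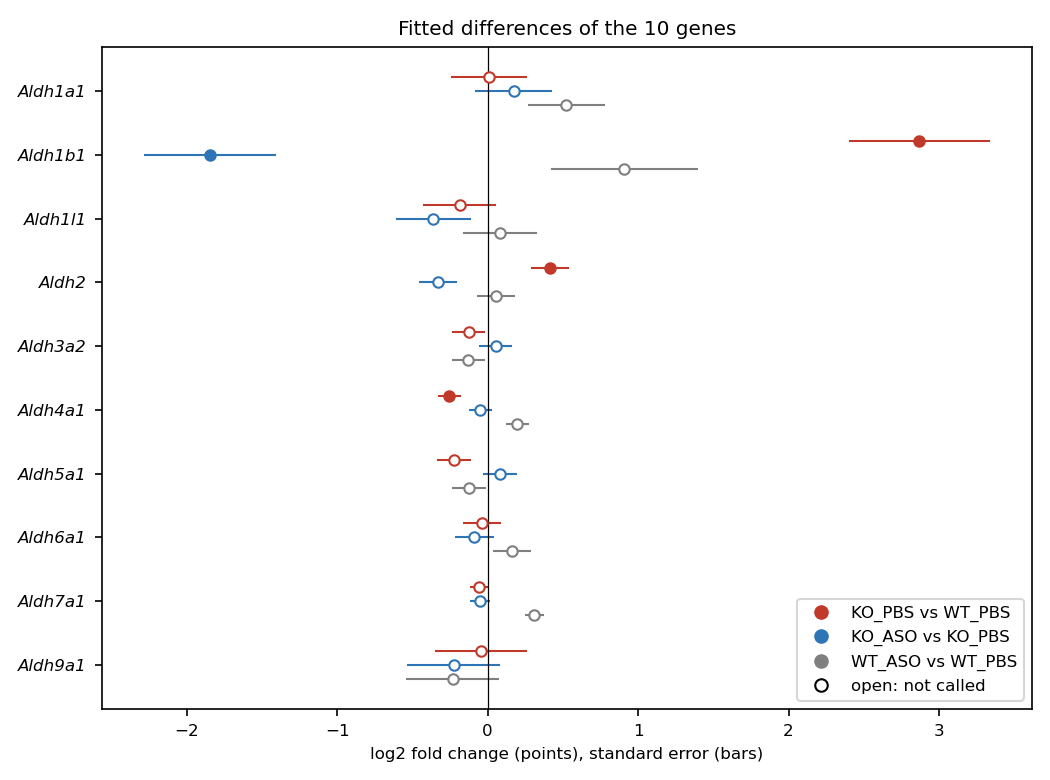
Log2FC of the 10 genes in KO_PBS vs WT_PBS (red), KO_ASO vs KO_PBS (blue) and WT_ASO vs WT_PBS (grey), with the SE as bars and filled points where the adjusted P value was under 0.05 (edgeR). Filled points are Aldh1b1 at 2.87 and -1.85, Aldh2 at 0.41 and Aldh4a1 at -0.25, and the remaining points are open.

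Across the 16 samples, the transcripts with a course most like that of Aldh1b1, by Pearson correlation of log2 CPM, were Pomp (r = 0.947), a proteasome assembly factor, Smpx (r = 0.932), a small muscle protein, and Sbk3 (r = 0.931). For Aldh2 they were Gm47815 (r = 0.908), Cnpy3 (r = 0.895) and Egln3 (r = 0.889), an oxygen-dependent prolyl hydroxylase. Between Aldh1b1 and Aldh2 themselves r was 0.848. These coefficients are descriptions over samples that share groups, library depth and scaling.

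In the amino acid branch, Aldh4a1 (ENSMUSG00000028737, GRCm38 chr4:139622866-139649690, plus strand, protein coding) completes the conversion of proline to glutamate. WT_PBS samples held 72.8, 79.9, 75.8 and 67.2 CPM. KO_PBS samples held 59.2, 66.3, 61.4 and 60.9 CPM, all below the lowest WT_PBS sample. The log2FC was -0.25 ± 0.08 (SE), a level of 83.8% of WT_PBS (adjusted P value 0.040, edgeR).

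The Aldh4a1 call was lost with library totals (log2FC -0.10, adjusted P value 0.350), with no filter (0.110), without WT_PBS replicate 1, 2 or 3 (0.0634, 0.117 and 0.0859), without KO_PBS replicate 1, 3 or 4 (0.130, 0.0729 and 0.0926) and without KO_ASO replicate 2 or 3 (0.0520 and 0.0534). The muscle fibre marker sum was lower as well, 119250 to 132010 CPM in KO_PBS beside 149520 to 185020 CPM in WT_PBS with 2 of 8 markers called lower. Satellite cell markers were called lower in 5 of 5 cases, with a sum of 9.07 to 11.5 CPM in KO_PBS beside 18.3 to 26.3 CPM in WT_PBS. The part of either list in the result was not tested. With ASO1, Aldh4a1 in KO_ASO measured 61.75, 57.5, 62.0 and 58.5 CPM, which overlapped KO_PBS (log2FC -0.05 ± 0.08 (SE), adjusted P value 0.828, edgeR). All KO_ASO samples remained below the lowest WT_PBS sample, with a log2FC of -0.30 ± 0.08 (SE) that was not called by edgeR (adjusted P value 0.234) and was called by DESeq2 (0.0344).

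WT_ASO samples held 72.9, 89.2, 89.1 and 87.8 CPM of Aldh4a1, 3 of them above every WT_PBS sample. In KO_ASO vs WT_ASO, a genotype comparison that shares no sample with KO_PBS vs WT_PBS, Aldh4a1 had a log2FC of -0.50 ± 0.08 (SE) with no overlap (adjusted P value 0.028, edgeR). Limma-voom (0.0928) and a fit of the 2 groups alone (0.270) did not make this call, and neither did the fits that left out WT_ASO replicate 2, 3 or 4, KO_ASO replicate 1, 2 or 4, WT_PBS replicate 1 or KO_PBS replicate 3 or 4 (0.0510 to 0.132).

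Genes most like Aldh4a1 over the 16 samples were Aamp (r = 0.952), Aar2 (r = 0.933), which serves in spliceosome assembly, and Tmod4 (r = 0.930), the tropomodulin of skeletal muscle thin filaments. Between Aldh4a1 and Aldh1b1 the coefficient was -0.474, and between Aldh4a1 and Aldh2 it was -0.435.

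The stretches just before the starts of Aldh1b1 and Aldh4a1, which lie on the same chromosome and were called in opposite directions in KO_PBS, are shown to let their base makeup be compared. Each is the 250 bases upstream of the start in RefSeq (GRCm38.p6), plus strand, 5′ to 3′, at chr4:45798772-45799021 for Aldh1b1 and chr4:139622644-139622893 for Aldh4a1. Capitals mark matches, on either strand, to any of 4 motifs of the 5 searched, and matches to the fifth, the E-box (CANNTG), are not in capitals. The CCAAT box was searched by those letters. The motif searched as the GC box was GGGCGG on either strand. The TATA box was searched as TATAAA. The antioxidant response element was searched as TGACNNNGC, and none of the matches shown overlap each other.
Aldh1b1: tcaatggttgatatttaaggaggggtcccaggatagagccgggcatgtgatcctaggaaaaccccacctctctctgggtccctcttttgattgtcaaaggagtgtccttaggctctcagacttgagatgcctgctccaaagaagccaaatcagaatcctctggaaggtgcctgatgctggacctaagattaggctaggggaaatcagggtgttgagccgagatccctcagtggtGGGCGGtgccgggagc
Aldh4a1: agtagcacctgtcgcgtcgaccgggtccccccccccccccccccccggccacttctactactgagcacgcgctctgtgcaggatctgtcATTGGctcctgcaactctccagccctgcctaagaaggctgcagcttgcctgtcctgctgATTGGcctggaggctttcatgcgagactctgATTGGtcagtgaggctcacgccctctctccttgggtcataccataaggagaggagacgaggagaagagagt

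The Aldh1b1 window held 1 GC box, 16 bases upstream, an E-box 207 bases upstream, no other match, 4 CpG dinucleotides and 53.2% G and C. The Aldh4a1 window held 3 CCAAT boxes, 161, 102 and 71 bases upstream, an E-box 245 bases upstream, 10 CpG and 60.8% G and C, and its end reaches into the gene as GENCODE draws it. Over 32851 mouse windows of this length the median was 6 CpG and 52.4% G and C. A CCAAT box was in 33.85% of these windows, a GC box in 32.7%, a TATA box in 12.4%, an E-box in 66.2% and an antioxidant response element in 10.2%. Of the 10 genes, 8 were matched in RefSeq with 10 windows, of which 8 held a CCAAT box, and a match is a run of letters only.

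Aldh7a1 (ENSMUSG00000053644, GRCm38 chr18:56509687-56572951, minus strand, protein coding), which acts in lysine breakdown and against osmotic stress, stood apart in wild-type mice given ASO1. WT_ASO samples held 33.0, 32.6, 33.9 and 29.1 CPM. WT_PBS samples held 25.7, 25.7, 26.4 and 25.9 CPM, KO_PBS samples 25.5, 23.2, 25.6 and 25.4 CPM, and KO_ASO samples 24.2, 23.1, 25.3 and 23.7 CPM. Every WT_ASO sample exceeded all other samples.

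For WT_ASO vs WT_PBS the log2FC of Aldh7a1 was 0.31 ± 0.06 (SE) and was not called by edgeR (adjusted P value 0.156, and 0.0676 to 0.569 with single libraries left out), whereas DESeq2 gave 0.0018. In this comparison edgeR called none of the 10 genes, with 2 at an unadjusted P value under 0.05, limma-voom called none and DESeq2 called 1, Aldh7a1. Of all genes, edgeR called 0.00668% and DESeq2 0.221%. Aldh7a1 was the only 1 of the 10 without overlap, beside 3.22% of all genes. The median log2FC of the 10 was 0.12, beside 0.00 for all genes.

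Genotypes under ASO1 differed in Aldh7a1 by a log2FC of -0.42 ± 0.06 (SE) in KO_ASO vs WT_ASO (adjusted P value 0.028, edgeR). That call was lost with library totals (0.0751), limma-voom (0.0637), no filter (0.0724), the 2 groups alone (0.270) and 10 of 16 libraries left out singly, among them WT_ASO replicate 2 (0.122) and KO_ASO replicate 2 (0.132). The interaction of -0.36 ± 0.09 (SE) missed the threshold (adjusted P value 0.0845, edgeR) and passed it in DESeq2 (0.0093). In KO_PBS vs WT_PBS the log2FC was -0.06 ± 0.06 (SE), and its sign turned with library totals (0.10). Phax overlaps Aldh7a1 on the other strand, and without a stated strand setting of the counting the reads of the pair cannot be told apart. Phax measured 14.5, 14.99, 14.3 and 14.0 CPM in WT_PBS, WT_ASO, KO_PBS and KO_ASO, and its part in the Aldh7a1 values was not tested.

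In KO_ASO vs WT_ASO, Aldh4a1 and Aldh7a1 were the 2 genes of the 10 called lower and none was called higher, beside 0.0334% of all genes lower and 0.0401% higher. The muscle fibre marker sum was also lower without overlap, 131490 to 153010 CPM in KO_ASO beside 154330 to 215170 CPM in WT_ASO, and its part in these calls was not tested. Aldh1l1 joined the 2 genes in having no overlap, which makes 3 of 10 beside 6.97% of all genes. In KO_ASO vs WT_PBS, edgeR and limma-voom called none of the 10, with 2 at an unadjusted P value under 0.05, and DESeq2 called 1, Aldh4a1, while of all genes edgeR called 0.0401% and DESeq2 0.636%. For the interaction, edgeR and limma-voom called none, with 4 at an unadjusted P value under 0.05, and DESeq2 called 2, Aldh1b1 and Aldh7a1, while of all genes edgeR called 0.575% and DESeq2 2.68%.

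Aldh6a1, which had the highest mean level per length in WT_PBS (GRCm38 chr12:84430717-84451004, minus strand), oxidises methylmalonate semialdehyde in valine and thymine breakdown. In KO_PBS Aldh2 had the higher mean level per length, 28.5 ± 1.05 CPM per kb beside 24.7 ± 2.33 CPM per kb for Aldh6a1, and their ranges overlapped. Aldh6a1 measured 146.6 ± 11.3 CPM in WT_PBS, 163.9 ± 35.8 CPM in WT_ASO, 142.8 ± 13.5 CPM in KO_PBS and 134.4 ± 11.5 CPM in KO_ASO (SD, n = 4). The groups overlapped, and the log2FC of KO_PBS vs WT_PBS had an interval of 2 SE from -0.29 to 0.22. Aldh5a1 (chr13:24907579-24937661, minus strand), succinate semialdehyde dehydrogenase of GABA breakdown, measured 16.6 ± 2.27, 15.3 ± 2.07, 14.2 ± 1.42 and 15.002 ± 0.433 CPM in the same order. Its log2FC of -0.23 ± 0.11 (SE) in KO_PBS vs WT_PBS was not called (adjusted P value 0.207, edgeR).

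Aldh3a2 (chr11:61223417-61267464, minus strand), the microsomal fatty aldehyde dehydrogenase, varied little, with means of 16.7 ± 2.41 CPM in WT_PBS, 15.3 ± 1.96 CPM in WT_ASO, 15.4 ± 0.549 CPM in KO_PBS and 15.9 ± 1.27 CPM in KO_ASO. Aldh9a1 (chr1:167349991-167368532, plus strand) measured 8.17 ± 1.99, 6.99 ± 4.38, 7.95 ± 1.503 and 6.80 ± 0.960 CPM in the same order. Its WT_ASO group ran from 3.41 to 13.4 CPM, so differences as large as an interval of 2 SE from -0.85 to 0.39 on the log2 scale between WT_ASO and WT_PBS could not be resolved.

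Of the cytosolic forms, Aldh1a1 (chr19:20492715-20643465, plus strand) measured 64.9 ± 13.7 CPM in WT_PBS, 93.1 ± 38.2 CPM in WT_ASO, 65.2 ± 10.7 CPM in KO_PBS and 73.5 ± 19.8 CPM in KO_ASO (SD, n = 4). A single WT_ASO library, replicate 2, reached 144.5 CPM. The log2FC was 0.01 ± 0.26 (SE) in KO_PBS vs WT_PBS, and its sign turned with limma-voom (-0.03). Aldh1a7 is a closely related neighbour of Aldh1a1, so reads of shared sequence may have been lost or assigned to the wrong gene of the pair, and both values are uncertain.

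Aldh1l1 (chr6:90486427-90600203, plus strand), which draws on the folate pool, measured 7.97 ± 1.97 CPM in WT_PBS, 8.46 ± 1.02 CPM in WT_ASO, 7.01 ± 0.947 CPM in KO_PBS and 5.46 ± 2.12 CPM in KO_ASO. In KO_ASO vs WT_ASO its log2FC of -0.63 ± 0.25 (SE) was not called (adjusted P value 0.259, edgeR). KO_ASO replicate 2 was at 2.49 CPM beside 5.50 to 7.39 CPM in the other KO_ASO samples, and the log2FC ran from -0.81 to -0.39 with single libraries left out, with -0.39 reached without that sample. A gene on the other strand, Gm15756, was lower in KO_PBS than in WT_PBS (log2FC -0.83 ± 0.17 (SE), adjusted P value 0.0055, edgeR), and without a stated strand setting its reads cannot be told from those of Aldh1l1.

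Of the 11 family symbols not chosen, 10 were in the table and 8 were tested. Aldh1a7 alone was called, lower in KO_PBS with 0.303, 0.793, 1.41 and 0.616 CPM against 1.23, 2.16, 2.33 and 1.78 CPM in WT_PBS (log2FC -1.25 ± 0.38 (SE), adjusted P value 0.041, edgeR). A single KO_PBS library, replicate 3, reached into the WT_PBS range. Aldh1a2, a retinoic acid synthesising form, was at 0.458 to 1.56 CPM in WT_ASO beside 2.235 to 2.57 CPM in WT_PBS without overlap, and was not called (log2FC -1.31, adjusted P value 0.687, edgeR). The mean of Aldh16a1, 11.3 CPM over all samples, lay above those of the chosen Aldh9a1, Aldh1l1 and Aldh1b1, so the 10 are not simply the most abundant.

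The pathways that feed or compete with these enzymes were described by 8 lists taken from general knowledge. Of their 128 genes tested, 7.03% were called higher and 5.47% lower in KO_PBS vs WT_PBS, near the 7.43% and 5.12% of all genes. In KO_PBS vs WT_PBS, branched-chain amino acid breakdown, which includes the Aldh6a1 step, had 0 genes higher and 1 lower of 24 tested (edgeR, 5 at an unadjusted P value under 0.05), with a median log2FC of -0.03. The gene called was Bckdk, the kinase that holds back branched-chain ketoacid oxidation, at 215.6 CPM in WT_PBS and 169.1 CPM in KO_PBS (log2FC -0.35 ± 0.08 (SE), adjusted P value 0.0089, edgeR). Proline, lysine and GABA breakdown had 1 gene higher and none lower of 9 tested, with a median of 0.14. That gene was Abat, GABA transaminase, which makes the substrate of Aldh5a1 and rose by a log2FC of 1.60 ± 0.33 (SE) (adjusted P value 0.0047), then fell in KO_ASO vs KO_PBS (log2FC -1.33, adjusted P value 0.034).

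Folate one-carbon genes, the setting of Aldh1l1, had 1 of 18 higher and none lower, with a median of -0.11. Mthfd2, the mitochondrial methylenetetrahydrofolate dehydrogenase, rose from 3.49 ± 0.377 CPM in WT_PBS to 7.66 ± 0.602 CPM in KO_PBS (log2FC 1.14 ± 0.11 (SE), adjusted P value 1.25e-05, edgeR). It fell in KO_ASO to 4.69 ± 0.491 CPM (log2FC -0.70 ± 0.11 (SE) against KO_PBS, adjusted P value 0.0027).

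Retinoid genes, around Aldh1a1, were called in both directions, 2 higher and 3 lower of 19, with a median of 0.03. The retinol dehydrogenase gene Rdh12 (log2FC 1.17, adjusted P value 0.039) was higher, and the retinoid X receptor genes Rxrg (-0.85, 0.0070) and Rxra (-0.54, 0.013) were lower in KO_PBS (edgeR). Rdh12 was near the floor of detection, with means of 0.393 CPM in WT_PBS and 0.883 CPM in KO_PBS, and its samples overlapped between these groups. None of these 3 was called in KO_ASO vs KO_PBS, with adjusted P values from 0.115 to 0.529.

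Among 24 other aldehyde-clearing enzymes 3 were higher and none lower, with a median of -0.05. Akr1b8, an aldo-keto reductase, rose from 1.101 ± 0.430 CPM in WT_PBS to 5.14 ± 2.48 CPM in KO_PBS (log2FC 2.205 ± 0.32 (SE), adjusted P value 0.00034, edgeR) and stood at 1.36 ± 0.148 CPM in KO_ASO (log2FC -1.92 against KO_PBS, adjusted P value 0.0035). Esd, which acts in formaldehyde removal, rose from 34.7 ± 1.42 to 51.4 ± 4.04 CPM (log2FC 0.57 ± 0.07 (SE), adjusted P value 5.94e-05) and fell to 38.9 ± 0.865 CPM (log2FC -0.40, adjusted P value 0.0038).

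Fatty aldehyde and ether lipid genes, near Aldh3a2, had 2 higher and none lower of 10, with a median of 0.06. Sgpl1, sphingosine phosphate lyase, which releases a fatty aldehyde, had a log2FC of 0.51 ± 0.11 (SE) in KO_PBS vs WT_PBS (adjusted P value 0.0065) and of -0.50 ± 0.11 (SE) in KO_ASO vs KO_PBS (0.020, edgeR). Cyp4f18, near the floor of detection at 0.289 CPM in WT_PBS, reached 0.839 CPM in KO_PBS (log2FC 1.53, adjusted P value 0.046). Carnitine genes had no call by edgeR among 6 tested, with 2 at an unadjusted P value under 0.05. The tricarboxylic acid cycle had none higher and 3 lower of 18, Idh3a (log2FC -0.27, adjusted P value 0.023) and Suclg1 (-0.26, 0.032) with the smallest P values, and a median of -0.09. The muscle fibre marker sum was lower in KO_PBS too, as given beside Aldh4a1, and its part here was not tested. In KO_ASO vs KO_PBS, 5 of the 128 listed genes (3.91%) were called lower, Abat, Mthfd2, Akr1b8, Esd and Sgpl1, and none higher, near the 2.83% of all genes lower and 0.802% higher. The macrophage marker sum had means of 64.3 CPM in WT_PBS, 212.9 CPM in KO_PBS and 64.5 CPM in KO_ASO. Means of the fibroblast sum were 1086.5, 1747.1 and 1058.8 CPM in the same order, with overlap between KO_PBS and KO_ASO. The part of either list in these calls was not tested.

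**Figure D4:**
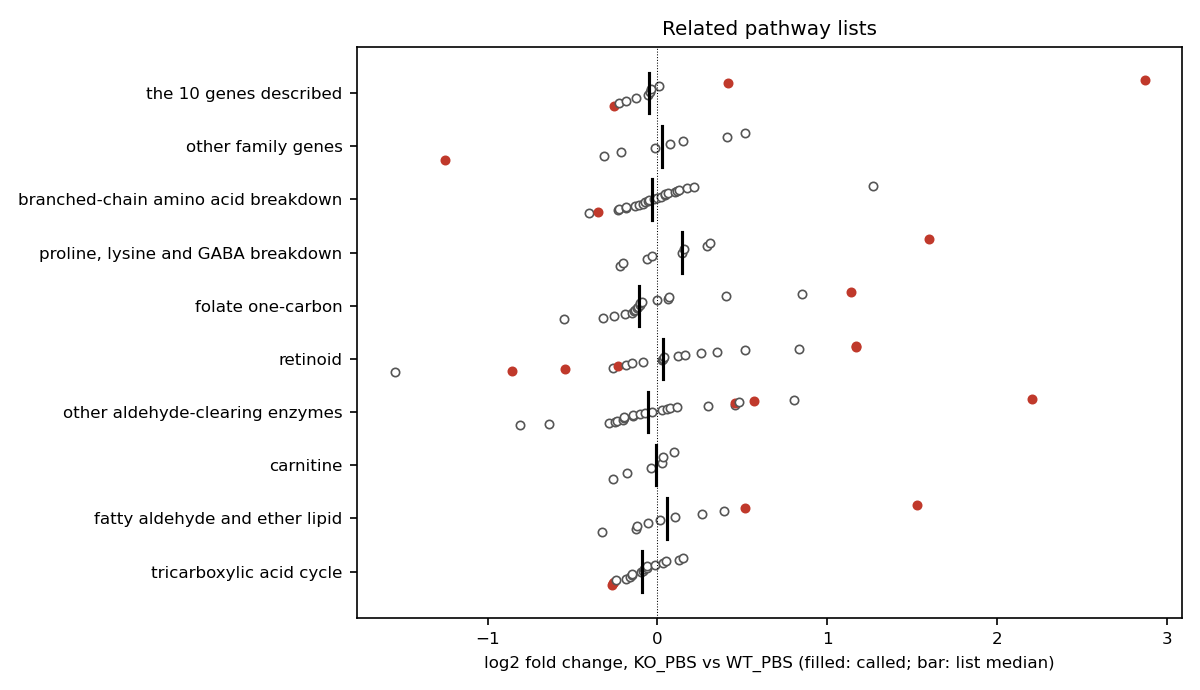
Log2FC in KO_PBS vs WT_PBS of every tested gene of 10 lists, 1 row per list, with filled points where the adjusted P value was under 0.05 (edgeR) and a bar at the list median. List medians lie between -0.11 and 0.14, and the called points furthest from 0 are Aldh1b1 at 2.87 and Akr1b8 at 2.205.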

How the data were processed

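Per the labels, total RNA of 16 tibialis anterior muscles was extracted in TRI Reagent, and a TruSeq kit that keeps strand information gave the mRNA libraries. What the authors deposited are raw counts per Ensembl gene, not normalized, in 1 column per sample. Tools in the submitters' processing notes are HTSeq 0.6.1p1, STAR 2.5.3a, Bowtie2 2.2.8 and cutadapt 1.10, with build GRCm38 (mm10). The strand setting of the counting is not given in the sources used here. All 29730 identifiers matched GENCODE M21, from which symbols and coordinates were taken, and upstream sequences are from RefSeq.

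Counts were fitted with edgeR 4.0.16 in R 4.3.3: filterByExpr by group kept 14960 genes, library sizes were scaled by TMM, and the robust quasi-likelihood fit estimated 4 group means from the 16 samples together. Within each comparison the Benjamini-Hochberg adjustment was applied over all genes, and a gene was called at an adjusted P value under 0.05. The SE is the log2FC divided by the root of F. CPM for correlations were on the log2 scale with a prior count of 2. Scripts were tested on simulated data. The labels do not state that every sample is a different mouse, so P values measure the spread between these samples, and no 2 libraries of a group were alike within sampling noise (lowest mean chi-square per gene 22.2).

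The 10 genes and all lists were chosen with earlier results of these data known. Genes named were the 10, with values in every sample for those called in KO_PBS vs WT_PBS or KO_ASO vs KO_PBS, the family genes called elsewhere, up to 2 called genes per direction in each pathway list, the 3 genes most correlated with each called member, and Bin1 and Dnm2. A gene that this rule names among the pathway lists is not reported here. Aldh7a1 in every sample, Aldh1a2, Aldh16a1 and the genes on the opposite strand were singled out after their values were seen. Alternatives were DESeq2 1.42.0, limma-voom with quality weights (limma 3.58.1), other scalings, no filter, a replicate block, the compared groups alone and leaving out each library.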

Additional observations from a re-analysis of the deposited data

Results flagged for a closer look

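A sample far from the others of its group was looked for with Dixon's test in 40 sets, the 10 genes in each of 4 groups, and 4 were found where chance gives about 1 in 20. Aldh4a1 was at 72.9 CPM in WT_ASO replicate 1 and at 87.8 to 89.2 CPM in the other WT_ASO samples. Aldh6a1 was at 151.6 CPM in KO_ASO replicate 1 and at 127.8 to 129.4 CPM in the others. Aldh7a1 was at 23.2 CPM in KO_PBS replicate 2 and at 25.4 to 25.6 CPM in the others. Aldh9a1 was at 8.23 CPM in KO_ASO replicate 1 and at 6.16 to 6.45 CPM in the others.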

How the results depend on the processing

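Over 1370 values of the 10 genes under alternatives, 1269 kept their direction and their side of the threshold, and none of the values called turned its sign. In KO_PBS vs WT_PBS 3 of the 10 genes were called, 2 with library totals or no filter (without Aldh4a1), 2 with the compared groups alone (without Aldh2), and 1 to 3 with single libraries left out. In KO_ASO vs KO_PBS 1 was called, 0 with no filter, and 0 to 1 with libraries left out. For WT_ASO vs WT_PBS and for KO_ASO vs WT_PBS 0 were called by edgeR and 1 in each by DESeq2, with 0 for every library left out. In KO_ASO vs WT_ASO 2 were called, 1 with library totals, 0 with limma-voom, 1 with no filter, 0 with the compared groups alone, and 0 to 2 with libraries left out. For the interaction 0 were called, 2 by DESeq2, and 0 to 1 with libraries left out. The causes were not tested. Over all genes, edgeR and DESeq2 called 544 and 1056 genes in KO_ASO vs KO_PBS, 1 and 33 genes in WT_ASO vs WT_PBS, 6 and 95 in KO_ASO vs WT_PBS, 11 and 422 in KO_ASO vs WT_ASO, and 86 and 385 for the interaction.

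Of 24 pairs of samples with the same replicate number in different groups, 11 deviated together with r over 0.1 (range -0.078 to 0.435), with a median of 0.075 beside -0.027 for pairs with other numbers. Of 48 best partners 29 had the same number, where numbers without information would give 12, a hint of pairing from the data alone. The labels name no shared litter or batch and not every pair exceeded 0.1, so the block was kept as an alternative. With the replicate number as a block, 1 gene, Aldh1b1, was called for the interaction (log2FC -2.76, adjusted P value 0.029, edgeR), Aldh9a1 turned to 0.048 in KO_ASO vs WT_ASO, and no other call among the 10 changed.

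Signs that turned were all of values not called. With library totals, log2FC in KO_PBS vs WT_PBS became 0.021 for Aldh3a2, 0.11 for Aldh6a1, 0.095 for Aldh7a1 and 0.11 for Aldh9a1, in KO_ASO vs KO_PBS -0.041 for Aldh3a2 and -0.014 for Aldh5a1, in KO_ASO vs WT_ASO 0.075 for Aldh5a1 and 0.045 for Aldh9a1, and for the interaction -0.060 for Aldh9a1. With limma-voom they became -0.028 for Aldh1a1 in KO_PBS vs WT_PBS and, in KO_ASO vs WT_ASO, -0.018 for Aldh2 and 0.079 for Aldh9a1. With libraries left out, KO_PBS vs WT_PBS ran from -0.096 to 0.15 for Aldh1a1, -0.099 to 0.0077 for Aldh6a1 and -0.15 to 0.092 for Aldh9a1. KO_ASO vs WT_ASO ran from -0.13 to 0.43 for Aldh1b1, -0.024 to 0.095 for Aldh2, -0.0016 to 0.14 for Aldh3a2, -0.095 to 0.056 for Aldh5a1 and -0.26 to 0.48 for Aldh9a1. WT_ASO vs WT_PBS ran from -0.052 to 0.20 for Aldh1l1 and -0.041 to 0.16 for Aldh2, KO_ASO vs WT_PBS from -0.010 to 0.19 for Aldh2, and the interaction from -0.22 to 0.53 for Aldh9a1. Levels per length moved by more than the SD in 26 of 40 sets with the longest transcript and in 5 of 40 with library totals. Depth limited Aldh1b1 most, with 7 to 29 counts per WT_PBS library.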
